A study of Equus caballus with 6 samples.

Results

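The genes described here encode matrix metalloproteinases, aggrecanases and the tissue inhibitors of metalloproteinases (TIMPs). They were chosen as the array probes whose annotation names MMP1, MMP2, MMP3, MMP13, MMP14, ADAMTS1, ADAMTS5, TIMP1, TIMP2 or TIMP3 by symbol or full name. Of these 10 genes, 9 were found, with 34 of the 43603 probes and among 13614 named genes. ADAMTS1 was not analysed here.

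The samples were regions of horse joint tissue taken by laser capture microdissection, which cuts chosen cells out of a thin frozen section, with 1 single-colour array per region. The adult regions were layers of articular cartilage of the stifle at 15 years of age: superficial (outermost 10% of the thickness), middle (20 to 30%) and deep (50 to 90%). The fetal regions were cut from hindlimbs at gestational day 40. They were 2 layers of the interzone, the tissue at the site of a future joint, named intermediate and outer, and transient embryonic cartilage. No region had a replicate, no treatment or genetic change is labelled for any of them, and the animals behind each region are not given in the sources used here. Every difference therefore describes these arrays, has no replicate check and carries no p-value.

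Metalloproteinases are zinc-dependent enzymes that cut proteins of the extracellular matrix. Most MMPs are secreted as inactive proenzymes, which other proteases activate, while MMP14 is anchored in the cell membrane. TIMPs bind the active site of these enzymes and block it. In cartilage, collagenases cut type II collagen and aggrecanases cut the proteoglycan aggrecan, and the balance of enzymes and inhibitors is studied in joint formation and in osteoarthritis.

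Levels are given on a normalized log2 scale, the log2 of the processed signal minus the array's 75th percentile, taken over the 1765 probes that every array measured well above background. A value of 0 thus lies at that percentile, and a difference of 2 is 4-fold. A probe is called detected where the scanner software marked its spot as well above background. Where a gene has several probes, the reported probe is the one with the highest mean level over the 6 arrays. A gene detected on only 1 side of a comparison is given as "at least N-fold", which sets the bright array against the lowest detected signal of the dim array, or the undetected probe's value there where that was higher. A gene was left out of a comparison where its reported probe was undetected on an array on which another of its probes was detected. The error of a difference by the scanner software's spot error had a median of 0.21 to 0.25 log2 units in the comparisons of 2 arrays. The pooled SD between different probes of a gene was larger, 0.51 log2 units for outer interzone minus transient cartilage and 1.04 for adult superficial minus deep. Neither error holds the variation between animals, dissections or amplifications, so the number of arrays limits the precision.

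The arrays differed in how much was detected. Of all probes, 26.4% were detected in the superficial, 8.40% in the middle and 10.8% in the deep layer, against 36.9% to 44.6% on the fetal arrays. Of 8 housekeeping genes, 6, 3 and 4 were detected in the superficial, middle and deep layers, against all 8 on each fetal array. The adult arrays shared a slide and the fetal arrays another, so stage and slide cannot be told apart. Of 12 chondrocyte marker genes, 5, 4 and 4 were detected in the superficial, middle and deep layers, with ACAN and SOX9 among them on every array. COL2A1, which encodes the defining collagen of cartilage, was not detected on any adult array, against levels of 0.97, 1.68 and 5.42 in the intermediate interzone, the outer interzone and transient cartilage. GDF5, a growth factor gene that marks the joint interzone, was detected in the intermediate interzone (-1.90) and outer interzone (-3.38) and not in transient cartilage. In captured tissue, fewer cells of a type and less RNA per cell cannot be told apart.

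The probes are 60 bases long. Probes at different places on the transcript of MMP1, MMP2, MMP14, ADAMTS5 and TIMP2 gave different patterns over the arrays, so each place is reported. The overlapping ADAMTS5 probes differed as well, and the cause of such differences was not tested. MMP1 had 8 probes at 4 places, TIMP2 7 probes at 3 places, ADAMTS5 3 probes at 2 places, and MMP2 and MMP14 2 probes at 2 places each. The 5 probes of TIMP1 overlapped at 1 place, as did the 5 of TIMP3, and MMP3 and MMP13 had 1 probe each. Probes of different genes of the set shared no run longer than 8 bases. Sequences of probes that carry these differences are printed as the files give them, without those of MMP1 at starts 1761 and 1821. A probe of TIMP1 and a probe of TIMP3, the gene that separated the stages, are printed too. Each is named by the probe's start in its transcript as the files list it. Capitals mark the 56 bases shared by the 5 overlapping MMP1 probes, the 37 bases shared by the overlapping ADAMTS5 probes, and the letters AATAAA, the usual polyadenylation signal. Those letters were searched on the printed strand only, and 8.64% of the 60-base probes on the array hold them. They occur in 12 of the 34 probes of the set: MMP1 start 1502, MMP13 start 2581, and all overlapping probes of TIMP1 and of TIMP2. Of some probes, 30 of the 60 bases are shown.
MMP1 start 1010: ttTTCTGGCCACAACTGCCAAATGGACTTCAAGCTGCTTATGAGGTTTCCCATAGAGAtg
MMP1 start 1502, part: ctgaagagccatacatttaAATAAAataca
MMP2 start 464: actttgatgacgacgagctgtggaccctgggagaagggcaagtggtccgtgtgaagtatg
MMP2 start 1274: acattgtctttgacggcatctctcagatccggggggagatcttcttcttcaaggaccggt
MMP14 start 1224: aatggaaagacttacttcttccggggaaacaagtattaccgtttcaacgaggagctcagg
MMP14 start 1381: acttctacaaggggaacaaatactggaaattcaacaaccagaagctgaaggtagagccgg
ADAMTS5 start 1332: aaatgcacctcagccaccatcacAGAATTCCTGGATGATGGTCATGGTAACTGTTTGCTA
ADAMTS5 start 1355: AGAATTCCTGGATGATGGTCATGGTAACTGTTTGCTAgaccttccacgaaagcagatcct
ADAMTS5 start 2741, part: ggttatgatcttacacagagataactggat
TIMP1 start 673, part: tctttctccaagacagtgaAATAAAgaact
TIMP2 nearest the 5′ end: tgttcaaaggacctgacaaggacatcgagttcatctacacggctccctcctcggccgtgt
TIMP2 start 230: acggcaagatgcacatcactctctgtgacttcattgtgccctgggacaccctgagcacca
TIMP2 start 582, part: ccttcctggaaacagcatgAATAAAacagt
TIMP3 start 948, part: ttgtaatacctactgcttttccttcttccc

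The number of genes of the set that were detected by any probe was 7, 5 and 3 of 9 in the superficial, middle and deep layers, against 6, 6 and 5 of 9 in the intermediate interzone, the outer interzone and transient cartilage. Of all named genes, 28.9%, 9.75% and 12.4% were detected in the superficial, middle and deep layers, against 37.9%, 43.7% and 45.8% on the fetal arrays in the same order. TIMP3 was detected on all 6 arrays and MMP13 on none. MMP1 and MMP3 were detected only on adult arrays among these 6, and TIMP1 only on the arrays of the interzones.

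**Figure D1:**
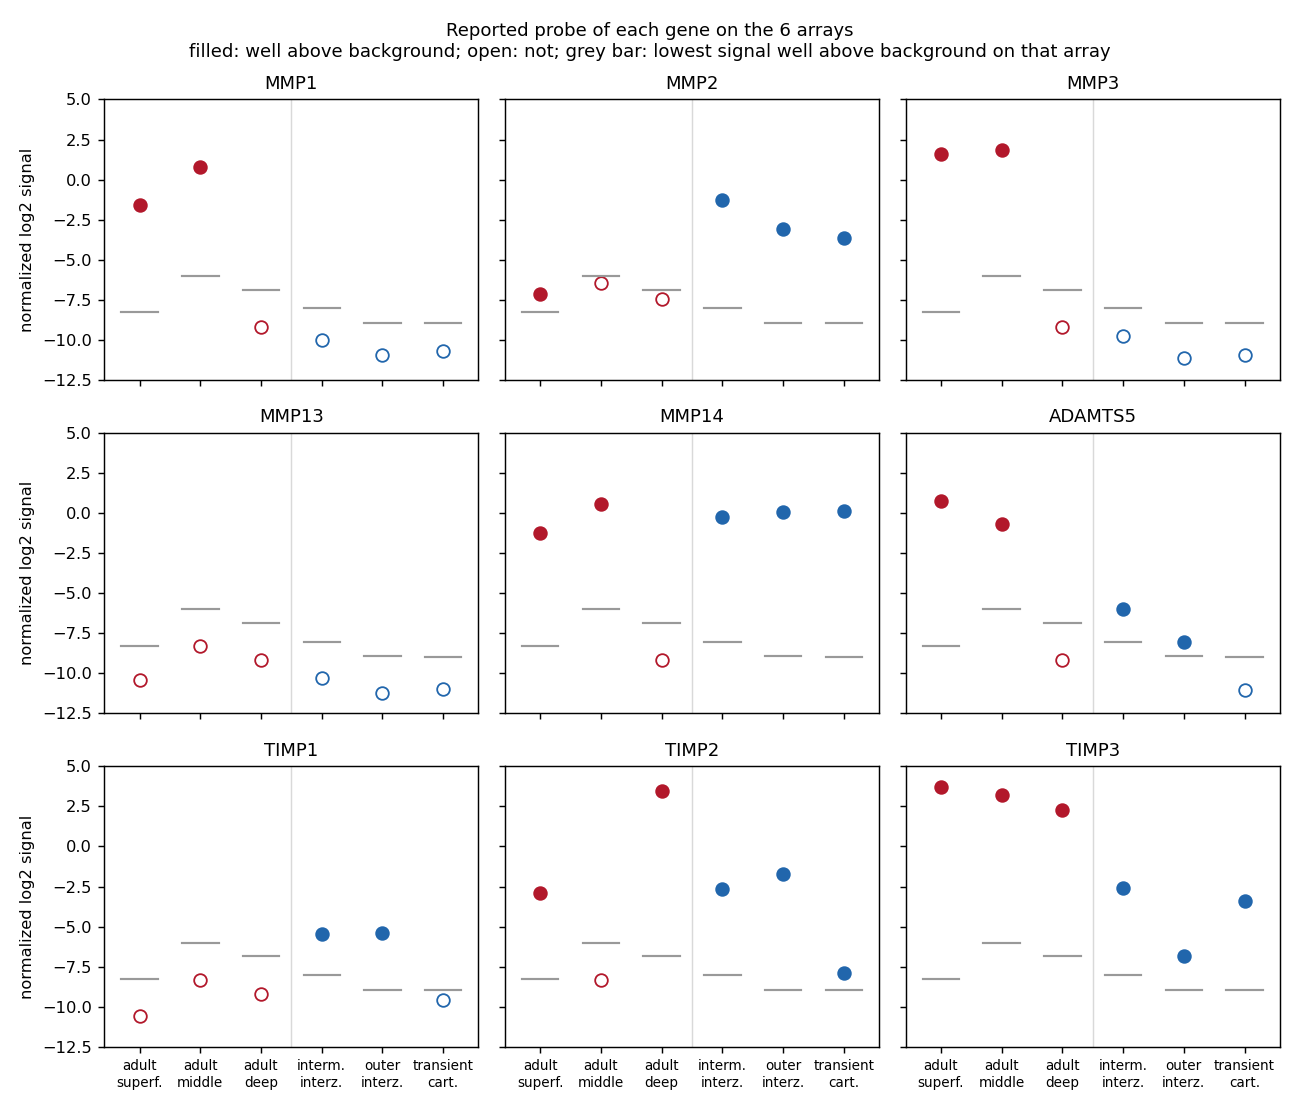
Normalized log2 signal of the reported probe of each gene on the 6 arrays, adult layers in red and fetal regions in blue. Filled points were well above background, open points were not, and grey bars give the lowest signal well above background on each array. TIMP3 sits between 2.26 and 3.69 on the adult arrays and between -6.82 and -2.59 on the fetal arrays.

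MMP3 (stromelysin), which cuts proteoglycans and other matrix proteins and activates procollagenases, was high in the upper layers of adult cartilage. Its only probe had a level of 1.57 in the superficial layer and 1.86 in the middle layer. The probe was not detected in the deep layer or in any fetal region. MMP3 in the superficial layer therefore exceeded the deep layer at least 346-fold and the intermediate interzone at least 772-fold. The superficial and middle layers differed by -0.29 log2 units, less than the SD of 0.97 between probes of a gene in that comparison, and the sign of this difference changed with the scaling.

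MMP1, the interstitial collagenase, was likewise detected in the superficial and middle layers alone, but its probes gave different orders for the layers. The 5 overlapping probes at starts 1008 to 1012 lay between -1.72 and -1.50 in the superficial layer and between 0.76 and 0.88 in the middle layer. The reported probe among them was 5.12-fold lower in the superficial layer than in the middle one. Before scaling, its processed signals were close, 844 in the superficial and 856 in the middle layer, and with the authors' scaling the difference was -0.41 log2 units.

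The other MMP1 probes were detected in the superficial layer alone. The probe at start 1502, which holds AATAAA, had a level of 1.49 in the superficial layer, at least 181-fold over the middle layer. The probe at start 1761 had -0.30 and the probe at start 1821 had -3.15 in the superficial layer, or at least 52.3-fold and 7.25-fold over the middle layer. The order of these layers for MMP1 is thus not settled by the array. All 8 probes were undetected in the deep layer and in the fetal regions, and with the reported probe the superficial layer exceeded the deep layer at least 38.4-fold.

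MMP13, a collagenase known from hypertrophic cartilage and from osteoarthritis, was not detected on any of the 6 arrays. It has a single probe, which holds AATAAA. In the horse assembly TB-T2T, MMP1 and MMP3 are neighbours, and MMP12 is the only protein-coding gene between MMP3 and MMP13. MMP12, an elastase, was detected in the middle layer alone, at -5.79, and was at least 5.62-fold lower in the superficial layer.

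MMP2 (gelatinase A), which cuts denatured collagen and is activated on the cell surface by MMP14 with TIMP2, had its highest levels in the fetal regions. Its reported probe, at start 464, had a level of -7.11 in the superficial layer, -1.30 in the intermediate and -3.06 in the outer interzone, with -3.66 in transient cartilage. It was not detected in the middle and deep layers. MMP2 was 56.1-fold lower in the superficial layer than in the intermediate interzone, where it was 5.12-fold above transient cartilage. Its superficial level was near the lowest detected signal of that array (-8.28), so folds that use it are uncertain.

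The other MMP2 probe, at start 1274, was not detected on any adult array, while that at start 464 was detected in the superficial layer. Its levels were -2.86 in the intermediate and -6.05 in the outer interzone, with -2.93 in transient cartilage. Both probes were higher in the intermediate than in the outer interzone, by 3.39-fold at start 464 and 9.12-fold at start 1274. They differed on transient cartilage: at start 1274 the intermediate interzone and transient cartilage were 1.05-fold apart, and the outer interzone was 8.68-fold lower than transient cartilage. At start 464 the outer interzone was 1.51-fold higher than transient cartilage, a small difference whose sign turned when the probes were averaged.

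MMP14, the membrane-type enzyme that activates MMP2, was detected by both probes on every array except that of the deep layer. The reported probe, at start 1381, had levels of -1.22 in the superficial and 0.57 in the middle layer, -0.28 in the intermediate and 0.05 in the outer interzone, with 0.11 in transient cartilage. The probe at start 1224 had -0.97, -1.47, -0.24, -0.82 and -0.56 in the same regions. Among the fetal regions neither probe differed by more than 0.58 log2 units. The sign of intermediate interzone minus outer interzone or transient cartilage differed between the probes, and that of outer interzone minus transient cartilage changed with the scaling. The superficial layer was 3.45-fold lower than the middle layer at start 1381, a sign that changed with the scaling, and 1.42-fold higher at start 1224. The deep layer was lower than transient cartilage with both probes, at least 126-fold at start 1381 and at least 78.8-fold at start 1224.

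ADAMTS5, an aggrecanase, had its highest level in the superficial layer with each of its 3 probes. The reported probe, at start 2741, had levels of 0.73 in the superficial and -0.68 in the middle layer, -5.97 in the intermediate and -8.07 in the outer interzone. It was not detected in the deep layer or in transient cartilage. ADAMTS5 was 104-fold higher in the superficial layer than in the intermediate interzone, the 15th highest difference of 2698 genes measured on both arrays.

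The probe at start 1332 was detected in the deep layer and in transient cartilage, where the probe at start 2741 was not. Its levels were -0.90 in the superficial, -4.50 in the middle and -4.21 in the deep layer, -8.63 in the outer interzone, against -7.71 in transient cartilage. With this probe the superficial layer was 9.91-fold above the deep layer, 12.1-fold above the middle layer and 112-fold above transient cartilage. The third probe, at start 1355, was detected in the superficial layer at 0.24 and in the deep layer at -6.16, an 84.4-fold difference. It was not detected in the middle layer or in the fetal regions. At start 2741 too the superficial layer was above the middle layer, by 2.66-fold. The middle and deep layers have no common order over the probes, since the probe at start 2741 was detected in the middle layer and not in the deep layer, while that at start 1332 was 1.22-fold lower in the middle layer.

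TIMP1, a secreted inhibitor of most MMPs, was detected in both interzones and nowhere else on these arrays. Its 5 overlapping probes lay between -5.44 and -4.95 in the intermediate interzone and between -5.39 and -5.17 in the outer interzone. All 5 were undetected in the 3 adult layers and in transient cartilage. TIMP1 thus exceeded transient cartilage at least 11.6-fold in the intermediate and at least 12.1-fold in the outer layer of the interzone. The interzones themselves differed by 1.04-fold with the reported probe. All of these values come from 1 place of the transcript, and after normexp correction the bound for the outer interzone came below 4-fold. Of 8 joint marker genes, 7 and 7 were detected in the intermediate and outer interzone, against 5 in transient cartilage, where GDF5 and CD44 were missing. Their summed linear levels were 27.1 and 17.4 in the interzones, against 1.06 in transient cartilage, and their part in the TIMP1 result was not tested.

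TIMP2, which inhibits MMPs and helps MMP14 to activate MMP2, had probes that disagreed widely on the adult layers. The 5 overlapping probes at starts 579 to 583, which hold AATAAA, lay between -3.22 and -2.90 in the superficial layer and between 3.07 and 3.44 in the deep layer. They were not detected in the middle layer. They lay between -2.97 and -2.67 in the intermediate interzone, between -1.98 and -1.69 in its outer counterpart and between -8.64 and -7.75 in transient cartilage. At this place the deep layer was above every other region, and 2549-fold above transient cartilage, the highest difference of 1307 genes measured on both arrays. The reported probe had -7.87 in transient cartilage, near the lowest detected signal of that array (-8.98), so its folds over transient cartilage are uncertain.

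The upstream probes of TIMP2 did not place the deep layer above every other region. The probe at start 230 had levels of -2.19 in the superficial layer, -2.85 in the deep layer, -5.42 in the intermediate and -3.04 in the outer interzone. It was not detected in the middle layer or in transient cartilage. The superficial layer was 1.58-fold above the deep layer at start 230, against 81.3-fold below it with the reported probe at start 582. The probe nearest the 5′ end had -2.84 in the superficial layer, -7.60 in the intermediate and -4.20 in the outer interzone, with -8.54 in transient cartilage. It was not detected in the deep layer, which the superficial layer exceeded at least 16.2-fold. The range of 7.11 log2 units between TIMP2 probes for superficial minus deep was matched or passed by 4 of the 268 genes with several measured probes, TIMP2 included.

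All places of TIMP2 had the outer interzone above transient cartilage, by 71.6-fold at start 582, 20.2-fold at the 5′ probe and at least 61.4-fold at start 230. All had the intermediate interzone below the outer interzone, by 1.94-fold at start 582, 5.21-fold at start 230 and 10.5-fold at the 5′ probe. All had the superficial layer above transient cartilage, by 31.3-fold at start 582, 51.8-fold at the 5′ probe and at least 111-fold at start 230. The measured folds over transient cartilage rest on faint spots there, with levels of -7.87 at start 582 and -8.54 at the 5′ probe.

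TIMP3, the inhibitor that binds to the matrix and also blocks ADAMTS aggrecanases, separated the stages. Its reported probe had levels of 3.69 in the superficial layer, 3.22 in the middle and 2.26 in the deep layer, against -2.59 in the intermediate and -6.82 in the outer interzone, with -3.38 in transient cartilage. All 3 adult layers lay above all 3 fetal regions, and the outer interzone was the lowest. The adult mean was 160.0-fold above the fetal mean, the third highest difference of 571 genes measured on all 6 arrays. Over all those genes the median was 0.54 log2 units, and of all genes compared 6.06% were 4-fold or more higher and 45.1% lower in the adult, measured or as a bound. Among genes measured on all 6 arrays 14.9% were higher and 9.63% lower, and 77.2% and 0.525% when scaled on all probes, so the side with more genes depended on the scaling and on the bounds. The other genes of the set had no value for the stage means: MMP13 was not detected, and detection of the rest differed among the arrays of a stage. The 5 overlapping probes differed by 0.30 log2 units in this value, and they share 54 bases, so they are not independent measurements.

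**Figure D2:**
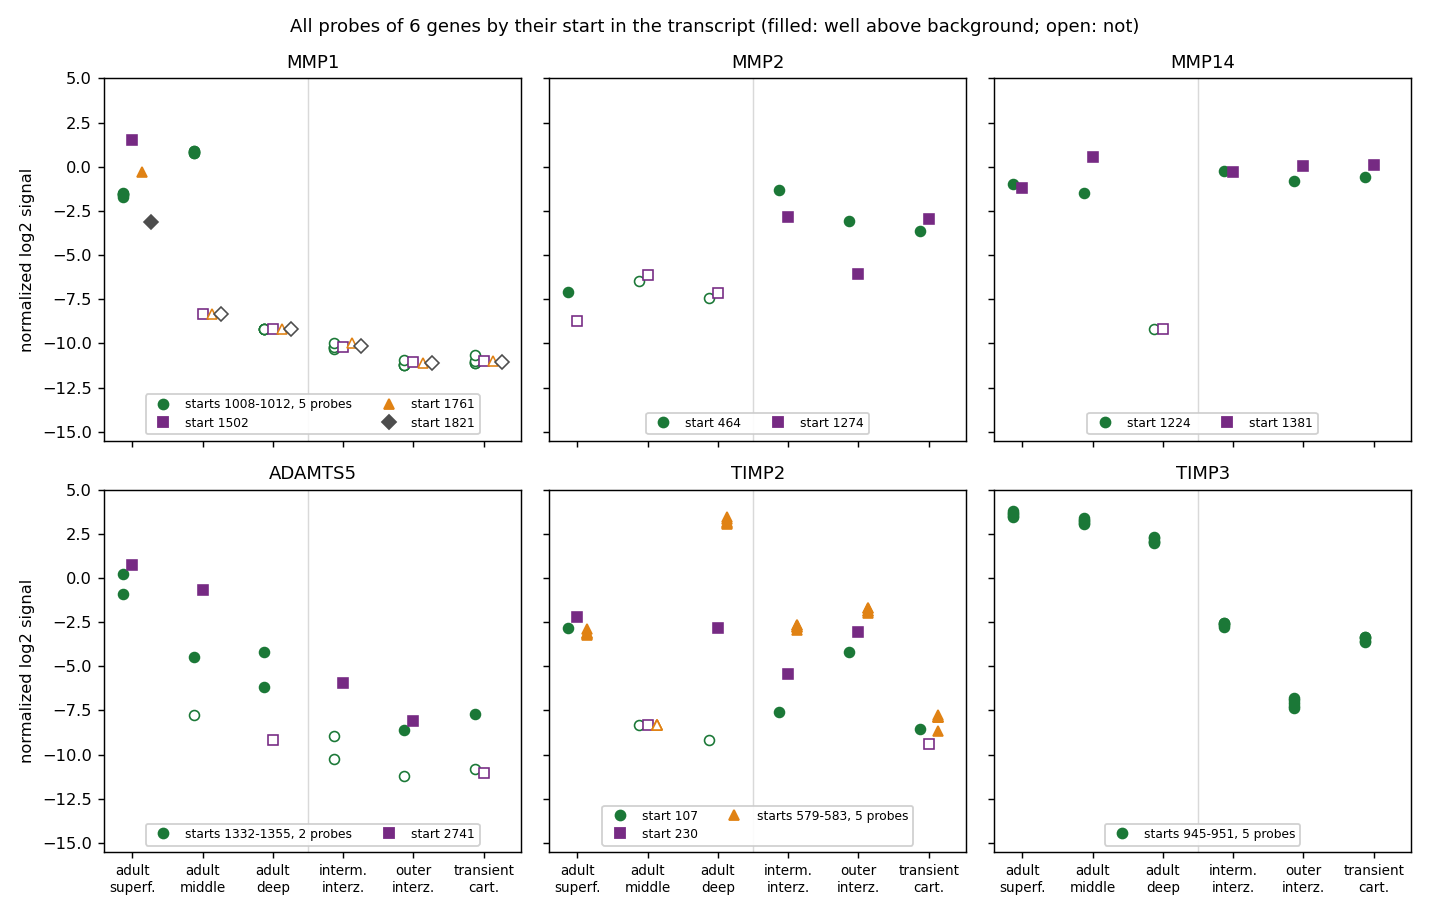
Normalized log2 signal of every probe of 6 genes on the 6 arrays, with symbols for the places of the probes on the transcript. Filled symbols were well above background, open symbols were not. The overlapping TIMP2 probes at starts 579 to 583 stand above 3 in the deep layer, where the probe at start 230 has -2.85 and the probe nearest the 5′ end is not above background.

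The layers of adult cartilage were compared to see how the genes differ with depth. Of the 6 genes measured on both the superficial and the deep array or detected on 1 of them alone, MMP2 was too faint in the superficial layer for a bound. Of the other 5, MMP1, MMP3 and MMP14 were at least 4-fold higher in the superficial layer, and the reported TIMP2 probe was 81.3-fold lower. The other places of TIMP2 went the other way, 1.58-fold higher at start 230 and at least 16.2-fold higher at the 5′ probe. Of all genes so compared, 36.8% were at least 4-fold higher and 12.3% lower, so the count of 3 of 6 higher, with MMP2 kept in the denominator as such genes are in those shares, is by itself no result about the set. The 3 higher genes were bounds, and 60.3% of the genes detected on either array were detected in the superficial layer alone. TIMP3 was 2.69-fold higher in the superficial layer, while the median of all 1247 genes measured on both arrays was -0.83 log2 units.

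Between the middle and the deep layer, 3 of the 5 genes compared were higher by 4-fold or more in the middle layer and 1 was lower. The higher genes were MMP1, MMP3 and MMP14, the last by at least 173-fold at start 1381 and 42.0-fold at start 1224. These 3 were bounds. MMP1 was higher only at starts 1008 to 1012, as its probes at starts 1502, 1761 and 1821 were undetected in both layers. The lower gene was TIMP2, at least 8.97-fold also at start 230. Over all genes compared, 15.5% were that much higher in the middle layer and 23.0% lower, and the median of the 803 genes measured on both arrays was 0.79 log2 units. The middle layer had the lowest share of detected probes, so that genes detected there and not in the deep layer were the less common kind, 21.6% against 38.1% of the genes detected on either array.

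Between the superficial and the middle layer, 7 genes were compared, and MMP2 among them was too faint for a bound. With the reported probes TIMP2 was at least 4-fold higher and MMP1 lower in the superficial layer, while MMP1 at starts 1502, 1761 and 1821 was at least 7.25-fold higher there. Over all genes, 33.8% were that much higher in the superficial layer and 15.9% lower. The median of the 989 genes measured on both arrays was -1.52 log2 units. ADAMTS5 was 1.41 and TIMP3 0.47 log2 units higher in the superficial layer. With the authors' table these became 3.36 and 2.42 log2 units and MMP1 -0.41, so that 3 members passed 4-fold upwards and 0 downwards. TIMP2 exceeded the middle layer at least 8.61-fold with its reported probe, and at least 8.98-fold and 14.1-fold at its other places.

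Markers differed between the layers as well. Of 7 osteoblast and hypertrophy markers, 4, 2 and 0 were detected in the superficial, middle and deep layers, with a summed linear level of 1.17 in the superficial and 0 in the deep layer. Among them SPP1 (osteopontin) had -0.56 in the superficial layer and -0.56 in the middle one, and COL10A1 was not detected on any array. Of 8 joint and articular surface markers 3, 2 and 1 were detected, and their linear levels summed to 34.2, 18.0 and 1.08 in the superficial, middle and deep layers. Most of the sum came from PRG4 in the superficial layer and from CD44 in the middle one. PRG4 had 5.02, -3.27 and 0.11 in the superficial, middle and deep layers, so it was lowest in the middle. CD44 had 0.64 in the superficial and 4.16 in the middle layer and was undetected in the deep layer. The part of these markers in the results on MMP1, MMP3 and MMP14 was not tested.

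The superficial layer was compared with the intermediate interzone and with transient cartilage to set the adult surface against fetal joint tissue and fetal cartilage. Against the intermediate interzone, MMP1, MMP3, ADAMTS5 and TIMP3 were at least 4-fold higher in the superficial layer, and MMP2 and TIMP1 were lower. These were 4 and 2 of 8 genes compared, where 16.9% of all genes were higher and 36.9% lower. The median of the 5 genes measured on both arrays was -0.23 log2 units, beside -0.11 for all 2698 such genes. TIMP3 was 78.0-fold higher, and TIMP1 at least 7.15-fold lower, a bound of -0.35 log2 units after quantile normalization. MMP14 and the reported TIMP2 probe differed by -0.94 and -0.23 log2 units, and both signs changed with the scaling. At its upstream places TIMP2 was higher in the superficial layer than in the intermediate interzone, 9.41-fold at start 230 and 27.0-fold at the 5′ probe.

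Against transient cartilage, MMP1, MMP3, TIMP2 and TIMP3 were at least 4-fold higher in the superficial layer and MMP2 was lower. These were 4 and 1 of 6 genes compared, beside 16.8% of all genes higher and 33.2% lower. The median of the 4 genes measured on both arrays was 1.82 log2 units, beside 0.33 for all 3023 such genes. MMP3 exceeded transient cartilage at least 1500.2-fold, with the reported MMP1 probe at least 166-fold higher, TIMP3 134-fold higher and MMP2 10.9-fold lower. Both MMP2 probes went the same way, with a bound of at least 40.7-fold lower at start 1274. The comparisons with the superficial layer share that array and are not independent of each other.

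The deep layer had TIMP2 and TIMP3 above transient cartilage and MMP2 and MMP14 below it, all at least 4-fold. Over all genes, 11.7% were that much higher and 33.5% lower, and the median of the 1307 genes measured on both arrays was 1.12 log2 units. TIMP3 was 49.9-fold higher and MMP2 at least 9.22-fold lower in the deep layer, the MMP2 bound being -0.08 log2 units when scaled on all probes. TIMP2 was at least 70.2-fold higher at start 230, while the probe nearest the 5′ end was detected in transient cartilage alone. ADAMTS5 was 11.3-fold higher in the deep layer at start 1332. The low adult levels of MMP2 stood beside low adult levels of COL1A1, from a list of fibroblast and perichondrium markers. Other genes of the list did not follow MMP2 in the superficial layer. There COL3A1 had 0.86, against 1.40 in transient cartilage, and POSTN had -3.20, against -3.36. Of 7 such genes, 4, 1 and 1 were detected in the superficial, middle and deep layers against 5, 6 and 4 in the intermediate interzone, the outer interzone and transient cartilage. The summed linear level of the detected markers ranged from 0.153 to 2.29 on the adult arrays and from 7.55 to 42.6 on the fetal arrays, and COL1A1 and COL3A1 were undetected in the middle and deep layers. MKX, a tendon gene of the list, went the other way, at -1.47, -2.62 and -2.71 in the superficial, middle and deep layers, against -2.74, -4.38 and -8.42 in the intermediate interzone, the outer interzone and transient cartilage. The part of these markers in the MMP2 result was not tested.

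**Figure D3:**
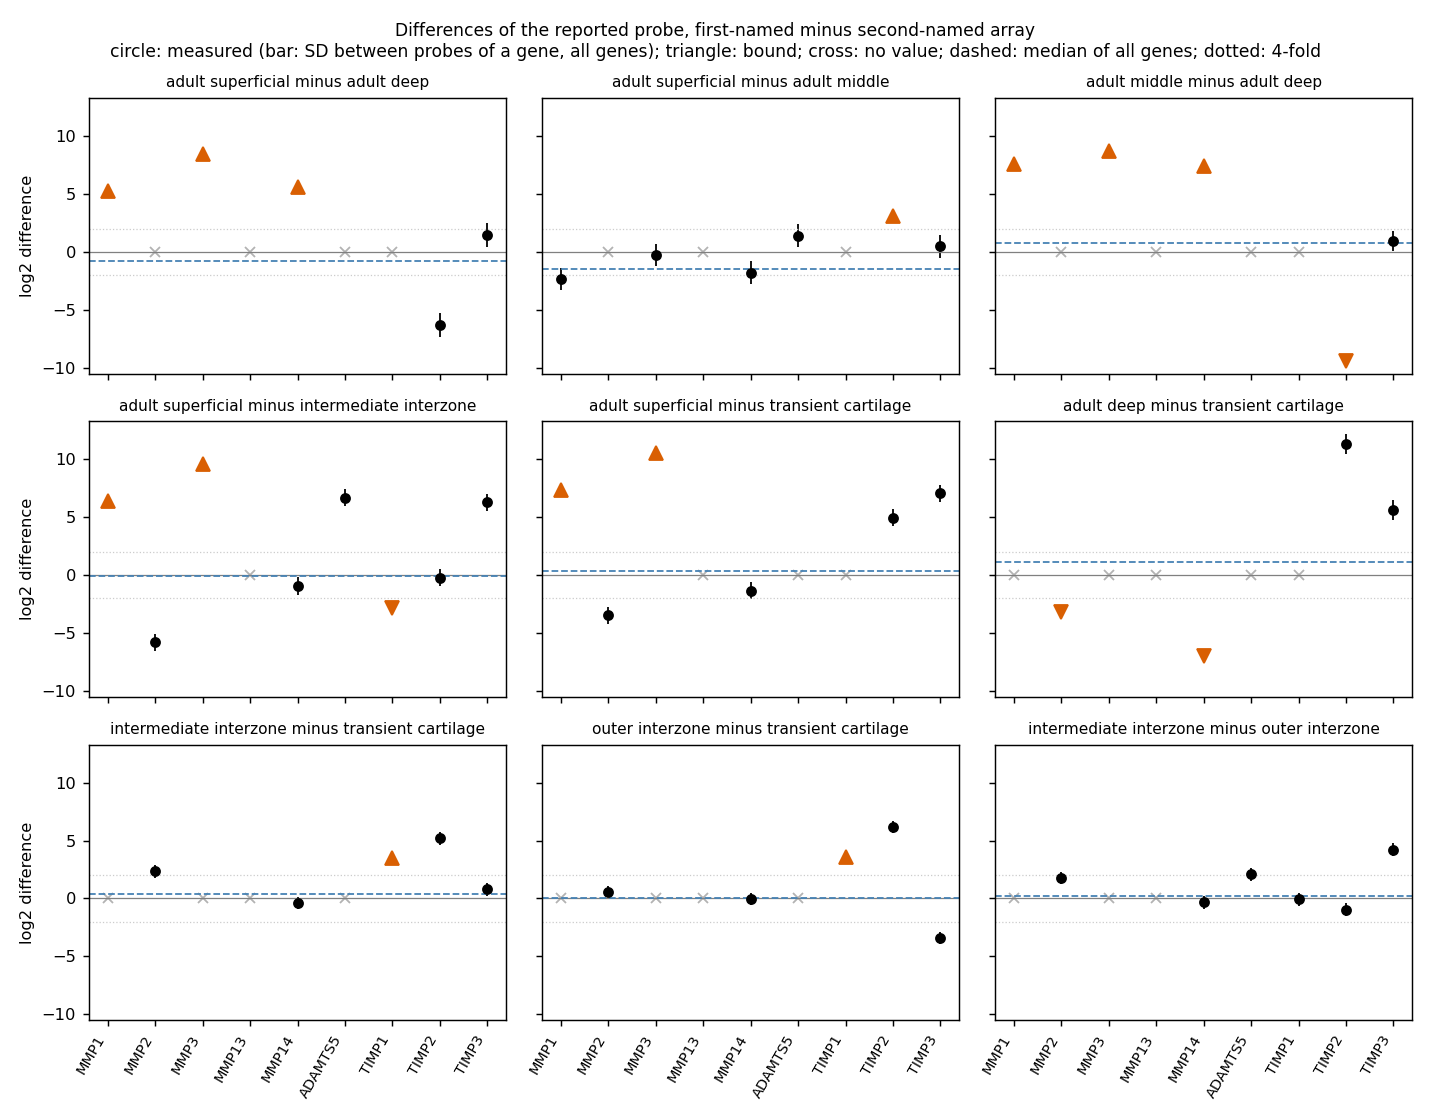
Log2 difference of each gene's reported probe in 9 comparisons of 2 arrays, first-named minus second-named. Circles are measured differences with the SD between probes of a gene as bar, triangles are bounds, and crosses mark genes with no value. TIMP3 lies above the dotted 4-fold line in each of the 3 comparisons of an adult layer with a fetal region, and MMP2 below it.

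The interzones were compared with transient cartilage to set tissue of the future joint against cartilage that bone replaces. In the intermediate interzone MMP2, TIMP1 and TIMP2 were at least 4-fold higher, and no gene was as much lower, of 5 genes compared. Over all genes, 17.6% were that much higher and 14.5% lower. TIMP2 was 36.9-fold higher with its reported probe, at least 11.8-fold at start 230 and 1.92-fold at the 5′ probe. In transient cartilage these TIMP2 probes were undetected or near the lowest detected signal. TIMP3 was 1.72-fold higher. The median of the 4 genes measured on both arrays was 1.57 log2 units, beside 0.36 for all 4305 genes so measured.

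In the outer interzone TIMP1 and TIMP2 were at least 4-fold higher than in transient cartilage and TIMP3 was 10.9-fold lower, of 5 genes compared. Over all genes, 15.8% were that much higher and 16.1% lower. The reported TIMP2 probe had the seventh highest difference of 4795 genes measured on both arrays, whose median was 0.08 log2 units. Its level in transient cartilage, -7.87, was near the lowest detected signal there (-8.98). Within this pair of arrays the change of TIMP2 exceeded that of TIMP3 by 9.60 log2 units, a value that a scaling factor for each array does not alter.

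Between the interzones, TIMP3 was 18.7-fold and ADAMTS5 4.29-fold higher in the intermediate interzone. These were 2 of 6 genes compared, beside 16.1% of all genes higher and 14.1% lower. The median of these 6 was 0.85 log2 units, beside 0.21 for all 4269 genes measured on both arrays. The ADAMTS5 difference was under 4-fold with 4 alternatives of scaling or background correction, and its probe at start 1332 was detected in the outer interzone alone. The reported ADAMTS5 probe had -8.07 in the outer interzone, near the lowest detected signal of that array (-8.94). TIMP3 and TIMP2 again moved apart, since TIMP2 was 1.94-fold lower in the intermediate interzone. TIMP1 and MMP14 were within 1.26-fold between the interzones with their reported probes. The sign for TIMP1 changed with the scaling, and that for MMP14 when its probes were averaged. Of 5 osteoclast markers, 3 had a probe, and only CTSK was detected, in the superficial layer and in transient cartilage. Of 8 macrophage and leukocyte markers with a probe, 4, 3 and 3 were detected in the superficial, middle and deep layers against 5 on each fetal array, and PTPRC lay between 4.41 and 5.85 on all 6 arrays. CD14, TYROBP and ITGB2 of that list were not detected on any array. The summed level of the list ranged from 21.5 to 28.1 on the adult arrays and from 29.8 to 57.8 on the fetal arrays. Nearly all of each sum came from the reported probe of PTPRC. The part of the list in the results on the proteases was not tested.

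Other genes of the system give the surroundings of these results. Of 16 other MMP genes with a probe, 1, 1 and 0 were detected in the superficial, middle and deep layers, against 2, 2 and 3 in the intermediate interzone, the outer interzone and transient cartilage. MMP16, a membrane-type MMP, was detected on all fetal arrays and on no adult array. MMP15, another membrane-type enzyme, was detected in both interzones, at least 6.20-fold and at least 6.35-fold above transient cartilage in the intermediate and outer interzone.

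Of 16 other ADAMTS genes with a probe, 1, 0 and 0 were detected in the superficial, middle and deep layers, against 4, 5 and 6 on the fetal arrays in the same order as above. ADAMTS6 and ADAMTS19 were detected on all fetal arrays. In the superficial layer ADAMTS19 was 37.5-fold below the intermediate interzone. The genes of this list detected on either of these arrays were 4, all of them detected in the intermediate interzone. With the scaling used here all 4 were at least 4-fold lower in the superficial layer, measured or as a bound, beside 36.9% of all genes compared. Of the 4, 3 were detected in the intermediate interzone alone, as were 37.6% of all genes detected on either array. Another scaling moved all genes in this comparison by up to 2.32 log2 units. ADAMTS8 was detected in the intermediate interzone alone, at least 53.8-fold above the outer interzone. ADAMTS10 in the intermediate interzone exceeded the outer one at least 19.6-fold. ADAMTS2, which trims procollagens, was detected in the outer interzone alone, and ADAMTS12 in transient cartilage alone. ADAMTS4, the other well-known aggrecanase gene, was not detected on any array and was named after its values were seen.

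Of 7 other genes for inhibitors and clearance with a probe, 3, 1 and 1 were detected in the superficial, middle and deep layers, against 4, 3 and 5 on the fetal arrays. TFPI2, a serine protease inhibitor of the matrix, had levels of 2.26 in the superficial and -0.26 in the middle layer, -3.92 in the intermediate and -5.90 in the outer interzone, with -5.23 in transient cartilage, and it was not detected in the deep layer. It was 73.0-fold higher in the superficial layer than in the intermediate interzone. RECK, a membrane-bound MMP inhibitor, was detected on the fetal arrays alone and was 4.38-fold higher in the outer interzone than in transient cartilage. A2M, the broad protease trap, was detected in transient cartilage alone. The endocytic receptors LRP1 and MRC2 were higher in the intermediate than in the outer interzone, by at least 5.19-fold and by 7.88-fold.

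Of 13 activating and companion proteases with a probe, 7, 2 and 2 were detected in the superficial, middle and deep layers, against 4, 5 and 7 in the intermediate interzone, the outer interzone and transient cartilage. FURIN, the proprotein convertase that activates MMP14, had a level of -0.08 in the superficial layer and was 259.8-fold above transient cartilage there. Its level in transient cartilage was -8.10, near the lowest detected signal of that array (-8.98), so the fold is uncertain. CTSK, the collagen-cutting cathepsin that is also on the osteoclast list, was 44.6-fold higher in the superficial layer than in transient cartilage and was undetected elsewhere. PLAUR, the urokinase receptor, was 10.4-fold higher and CTSS 17.8-fold higher in the same comparison. HTRA1, a secreted serine protease that cuts aggrecan, was detected in the superficial layer and on all fetal arrays, within 1.53-fold among the fetal regions, and the superficial layer exceeded the deep layer at least 88.7-fold. CTSB went the other way, 14.9-fold lower in the superficial layer than in the intermediate interzone. ADAM9, which sheds cell surface proteins, was 16.9-fold higher in the deep layer than in transient cartilage. Against transient cartilage, 7 of these proteases were measured on both arrays, of which 4 were at least 4-fold higher in the superficial layer and 2 lower, beside 21.2% and 14.0% of all genes measured on both, and 16.8% and 33.2% of all genes with bounds included.

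For the genes of the set detected on at least 4 arrays with the reported probe, the genes with the most similar pattern were sought by the root mean square difference of the profiles over the 6 arrays, each centred on its own mean. MMP2 came closest to MFAP2, a microfibril gene (0.31 log2 units), then UBE2M (0.40) and CWC27 (0.47). MMP14 came closest to EPRS (0.40), SSR2 (0.44) and ZFAND6 (0.44), and TIMP2 to MGAT2 (0.79), SDCBP (1.41) and PPIL4 (1.80). Neither ADAMTS5 nor TIMP3 had a match as near as these first ones. For ADAMTS5, INHBA stood at 1.74, TFPI2 at 1.88 and CD44 at 2.19 log2 units, where the spread of its own profile was 4.33. TIMP3 came closest to CLU (1.52), ANGPTL7 (1.54) and NR0B1 (1.77), with a spread of 3.91. Values below background enter these profiles, the profiles share the depth of detection of each array, and 6 arrays leave many genes with like patterns.

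**Figure D4:**
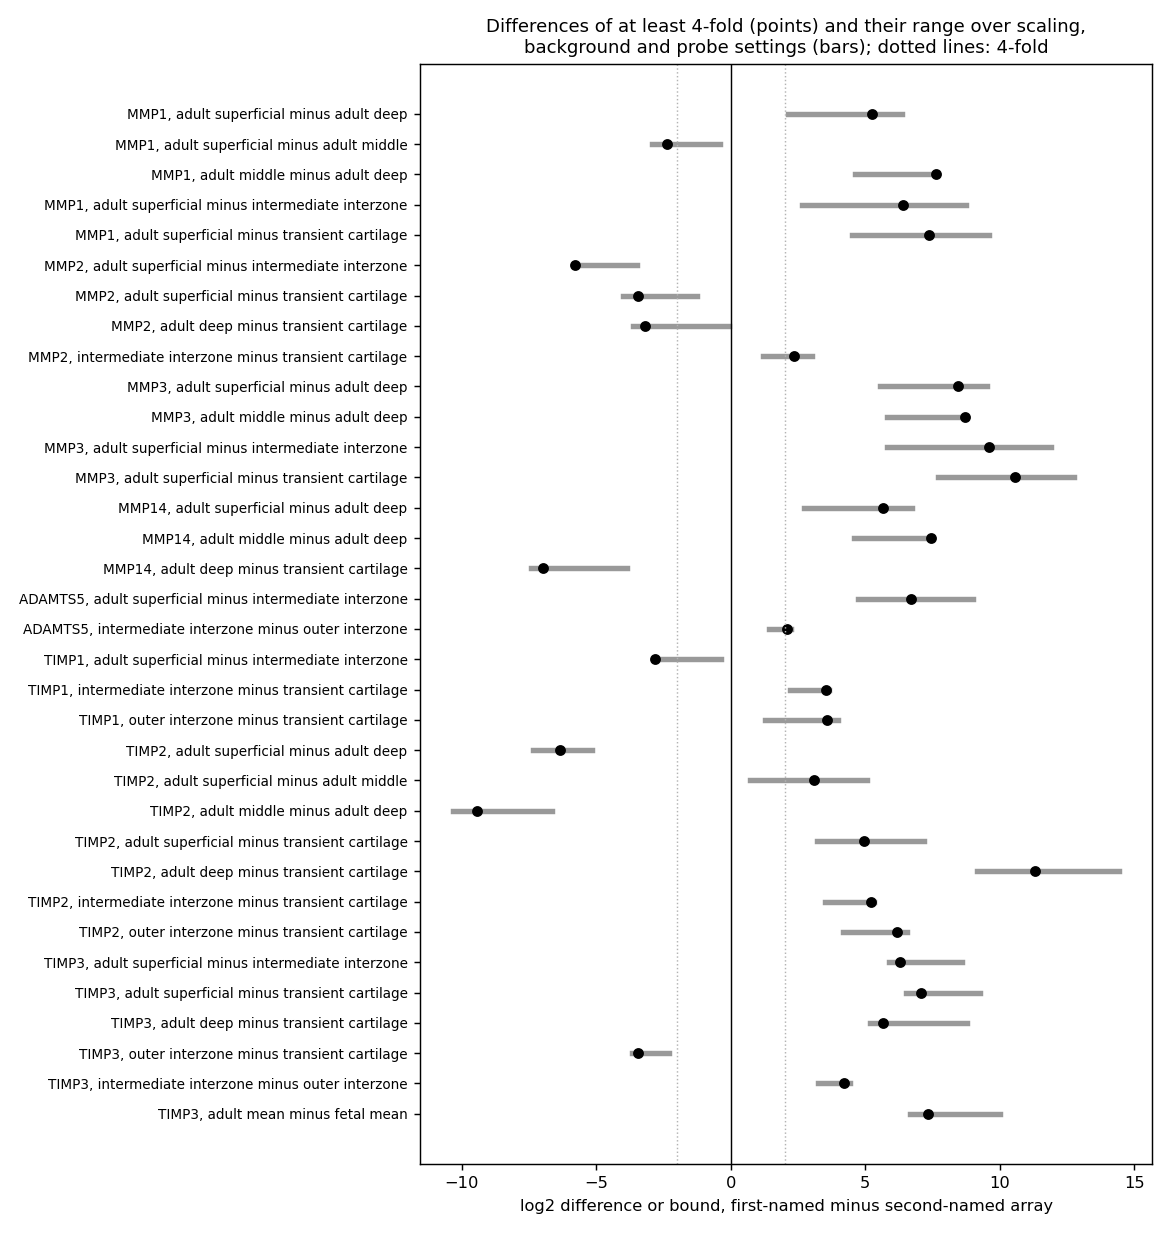
Each point is a difference or bound of at least 4-fold between arrays in log2 units, and each bar is its range over scaling, background correction and choice of probe. All 34 values keep their sign, and 8 come below 4-fold (dotted lines) under at least 1 setting. A bound that would change direction has no value and is left out, so only measured differences could have changed sign. The TIMP3 value for adult mean minus fetal mean ranges from 6.65 to 10.03.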

How the data were processed

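Per the labels' protocols, SuperAmp, which amplifies cDNA by PCR and can distort relative amounts, was used on RNA from the dissected cells before Cy3 labelling of 250 ng. The authors deposited the scanner output. Per the file headers, Agilent Feature Extraction 10.7.3.1 gave its processed signal, a linear intensity after background subtraction. The deposited series table holds values that proved to be a ratio, the processed signal over each array's median. Detection flags and other columns were used as deposited, per the file headers.

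Control spots (1417) and spots with outlier flags (3 to 80 by array) were dropped, which left 43603 probes, and no spot was saturated. Probes were named from their descriptions and the horse gene table of assembly TB-T2T, which was used for names and neighbours only; 19926 stayed unnamed. Python 3.11.15 and pandas 2.3.3 computed the values, and limma 3.58.1 in R 4.3.3 the normexp alternative with an offset of 50. The comparison step was tested on simulated data. Every region had 1 array, so no test was run. The 10 members, the other gene lists and the markers were chosen with earlier results of these data known. The other genes named are those at least 4-fold apart in some comparison, at most 6 per list. Alternatives were other percentiles, quantile normalization, normexp, the authors' values, means over probes, no filter on dim probes, and a 2-fold threshold. Patterns that matched descriptions to genes were written after the files were seen.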

Additional observations from a re-analysis of the deposited data

How the results depend on the processing

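No paired analysis was possible because each group had 1 array. Of the 10 counts of genes at least 4-fold apart, 7 stayed within 1.5 times under every alternative. Between the interzones the count of 2 became 1 with the 50th percentile, with normexp correction and with the authors' table, where ADAMTS5 came below 4-fold. Between the superficial and the middle layer the count of 2 became 1 with normexp, 4 with no filter on dim probes and 4 at the 2-fold threshold. For adult mean minus fetal mean the count of 1 became 7 with no filter on dim probes, which compares values below background, and 2 without the middle layer array, where TIMP2 is measured on both sides. The number of detections summed over arrays was 32 with any probe and 30 with the reported probe. All 34 differences of at least 4-fold kept their sign, and 26 stayed at least 4-fold. For bounds the kept sign is no check, since a bound that would change direction was given no value. MMP2 in deep minus transient cartilage and TIMP2 in superficial minus middle had values under 6 settings only. The 8 others, by their value nearest 0, were in log2 units MMP1 in superficial minus middle (-0.41, authors' table), TIMP2 in the same pair (0.71, normexp), MMP2 in superficial (-1.24) and deep (-0.08) minus transient cartilage (both scaled on all probes), MMP2 in intermediate interzone minus transient cartilage (1.21, mean over probes), ADAMTS5 between the interzones (1.42, quantile), TIMP1 in superficial minus intermediate interzone (-0.35, quantile) and TIMP1 in outer interzone minus transient cartilage (1.29, normexp). Of 17 smaller differences, 9 changed sign under some scaling, background or probe setting. Other scalings moved the median of all genes for adult mean minus fetal mean by -0.54 to 2.71 log2 units. The cause was not tested, and faint probes limit what the middle and deep layers can show.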
